A study of Mus musculus with 6 samples.

Results

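The 39 genes examined here encode metalloproteases of the ADAM, ADAMTS and MMP families and their TIMP inhibitors, 35 proteases and 4 inhibitors, and they were found among the 55335 genes of the count tables through their symbols in GENCODE M21. They were compared in B16-BL6 mouse melanoma cells, either scrambled control cells, labelled WT and transduced with a lentiviral CRISPR vector whose guide targets GFP, or IFNγR1KO cells, which received the same vector with a guide against Ifngr1, the gene of the ligand-binding chain of the interferon-γ receptor. Both lines thus carry Cas9 and were selected with puromycin, and knockout cells were grown from single clones that had been screened for a lost PD-L1 response to interferon. RNA came from 3 cultures of each line (control 1, 2 and 3, IFNγR1KO 10, 11 and 12) that had been seeded overnight in the same medium, and whether the 3 IFNγR1KO cultures are 1 clone is not given in the sources used here. The families were chosen with results of these data known, and Adam12 was chosen by its measured fold change between the lines, so its values are given as a description and without a test.

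These enzymes cut proteins at and outside the cell surface with a zinc ion in the active site. ADAMs sit in the membrane and release the ectodomains of growth factors, adhesion molecules and receptors such as Notch, ADAMTS enzymes are secreted and trim proteoglycans, procollagens and microfibrils, and MMPs degrade collagens, laminins and other matrix proteins either as secreted enzymes or anchored in the membrane. TIMPs block them by binding the active site, and in melanoma the balance between both sides is studied for its part in invasion, growth factor release and shedding of immune ligands. The counts are amounts of RNA and say nothing of enzyme activity.

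The active site can be read in the coding sequence, and it is shown here because it separates the working proteases of the list from the others. In the longest coding sequence of each gene in GENCODE M21 (GRCm38), 32 of the 35 proteases held the zinc site with its zinc-binding histidines at fixed spacing, and the 3 without it were Adam11, Adam22 and Adam23, which are known as adhesion proteins without protease activity. None of the TIMPs held it (0 genes). All 12 ADAMTS genes and Adam10 had the site split between neighbouring exons. In 4 of them (Adamts1, Adamts4, Adamts9 and Adamts15) asparagine stood in place of the glycine between the second and the third histidine. The sites of Adam12 and of the 4 genes with the largest log2 fold changes among those past an edgeR adjusted p of 0.05 are printed 5′ to 3′ on the coding strand, with the histidine codons in capitals. They lie at chr7:133961158-133961190 on the minus strand in exon 11 for Adam12, at chr11:46125050-46125082 on the plus strand in exon 11 for Adam19, at chr10:75926931-75926963 on the minus strand in exon 5 for Mmp11, at chr8:95368585-95368617 on the plus strand in exon 5 for Mmp15, and, split between exons 8 and 9, within chr6:92905285-92908493 on the minus strand for Adamts9.
Adam12: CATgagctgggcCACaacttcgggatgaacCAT
Adam19: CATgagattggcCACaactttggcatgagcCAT
Mmp11: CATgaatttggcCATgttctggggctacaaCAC
Mmp15: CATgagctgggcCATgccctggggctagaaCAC
Adamts9: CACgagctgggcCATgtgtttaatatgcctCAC

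Control libraries held 9402640 to 10579788 counts on genes and IFNγR1KO libraries 6698956 to 7409479, so every knockout library was shallower, and 1 count stood for 0.0966 to 0.142 CPM (counts scaled to library size after TMM normalization). Ifngr1 itself had 14.3 to 16.7 CPM in control and 11.4 to 11.5 CPM in IFNγR1KO libraries (log2 fold change -0.47, edgeR adjusted p = 0.0729), so its RNA was still counted after the guide. The 8 melanocyte markers together took 37200 to 40100 CPM in control and 32400 to 36800 CPM in IFNγR1KO libraries, ranges that did not overlap. Of these 8 genes, 0 were higher and 0 were lower at an edgeR adjusted p under 0.05. Endothelial and keratinocyte markers summed to at most 0.76 CPM in any library. The 7 leukocyte markers summed to 13.9 to 15.2 CPM in control and 11.5 to 13.3 CPM in IFNγR1KO libraries, ranges that did not overlap. Csf1r and Lyz2 carried most of that sum, with 62 to 96 and 51 to 65 counts in control and 42 to 62 and 21 to 36 counts in IFNγR1KO libraries, and neither passed the test (Lyz2 log2 fold change -0.60, edgeR adjusted p = 0.154). The defining leukocyte gene Ptprc had 1 count in 1 library, Adgre1, Cd3e and Itgam were at 0, and the part of this sum in the list genes that were lower was not tested. The 7 fibroblast markers summed to 18.7 to 23.7 CPM in control and 26.9 to 35.6 CPM in IFNγR1KO libraries, ranges that did not overlap, and Lum, Thy1 and Dpt were at 0 in all 6 libraries. Its largest part, Pdgfrb, was at 16.3 ± 2.52 CPM in control and 22.5 ± 3.78 CPM in IFNγR1KO libraries (SD, n = 3 each, edgeR adjusted p = 0.103), and Col1a1 was the marker that passed the test, upwards. Pdgfra went the other way without overlap, from 4.13, 3.18 and 3.48 CPM in control to 2.42, 1.76 and 2.11 CPM in IFNγR1KO libraries (log2 fold change -0.77, edgeR adjusted p = 0.0866). In a bulk sample, fewer cells of a kind and less RNA per cell cannot be told apart. Control 3 was the highest control library for 19 of the 28 tested list genes and IFNγR1KO 12 the highest knockout library for 17, against 39.3% and 41.1% of all genes tested.

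Which of these proteases B16 cells express was read from the level per length of exon (CPM per kb, mean over the 6 libraries). The length is that of all annotated exons of a gene merged, and the order of genes depends on it. Adam23, with 17907 such bases, was above Adam17 by CPM and below it by CPM per kb. Of the 39 genes, 33 had a count in some library and 6 had none. Timp2 was highest at 80.5 CPM per kb, followed by Adam9 at 55.0, Mmp11 at 52.9, Mmp14 at 43.9, Adamts1 at 28.7 and Adam10 at 18.7 CPM per kb. Adam17 and Adam23 came next at 9.71 and 6.58 CPM per kb. The order at the top was not the same in both lines. In control libraries Timp2 ranged from 93.5 to 98.6 CPM per kb, above Adam9 (53.0 to 70.2), Mmp14 (41.1 to 54.8) and Mmp11 (31.7 to 36.6), and the ranges of Adam9 and Mmp14 overlapped. In IFNγR1KO libraries Mmp11 stood first at 69.7 to 75.8 CPM per kb, above Timp2 at 61.6 to 66.5, and these 2 ranges did not overlap.

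**Figure D1:**
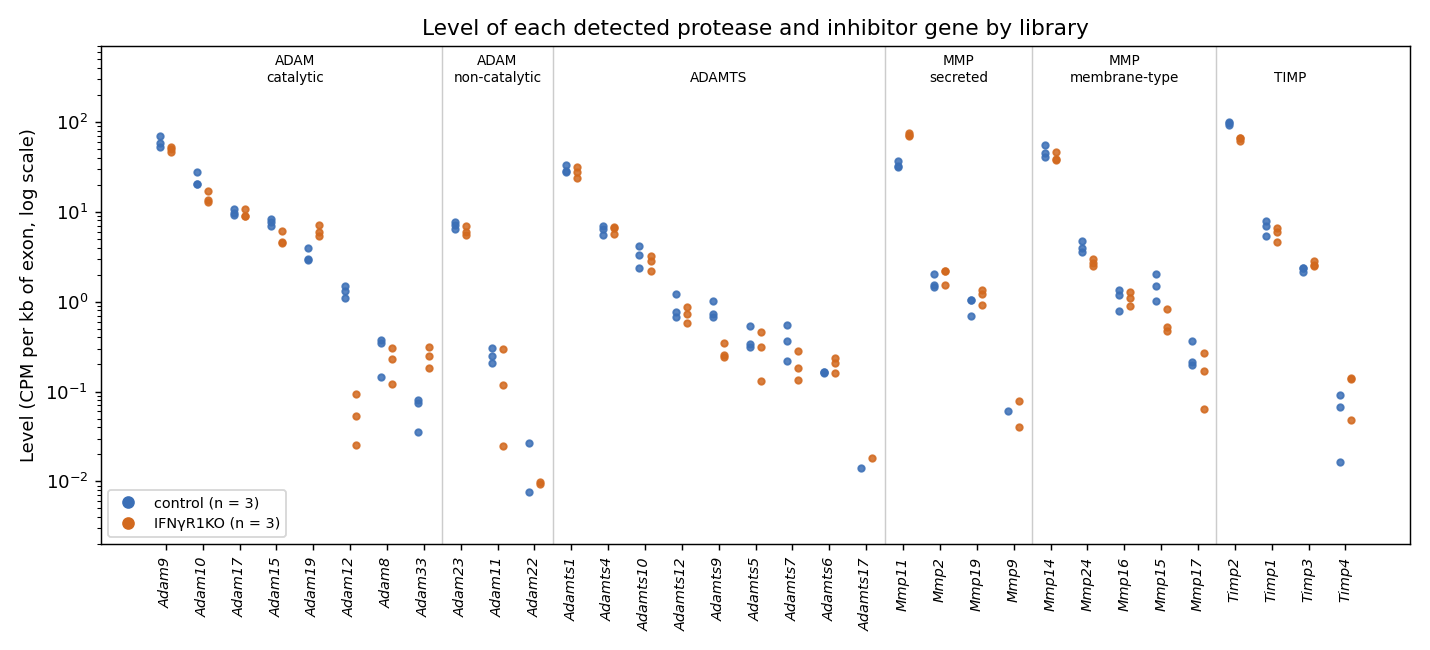
Level of the 33 list genes with a count in any library, in CPM per kb of exon on a log scale, with 3 control libraries in blue and 3 IFNγR1KO libraries in orange; libraries at 0 are not drawn. Timp2, Adam9, Mmp11 and Mmp14 lie near the top, the Adam12 points of the lines are far apart, and Adam22, Adamts17 and Mmp9 sit at the bottom.

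Summed by family, secreted MMPs were higher, and TIMPs lower, in every IFNγR1KO library than in any control library. Secreted MMP genes summed to 34.3, 39.6 and 34.3 CPM per kb in control 1, 2 and 3 and to 79.0, 73.1 and 74.3 CPM per kb in IFNγR1KO 10, 11 and 12, and Mmp11 made up 94.8% of that sum over all libraries. TIMP genes summed to 103, 106 and 106 CPM per kb in control and to 70.7, 75.0 and 74.1 CPM per kb in IFNγR1KO libraries, with Timp2 at 90.2% of the sum. No test was made on sums. Catalytic ADAMs were at 106 ± 14.8 CPM per kb in control and 85.3 ± 7.95 in IFNγR1KO libraries (SD, n = 3 each). Their lowest control library, control 1, was at 95 and their highest IFNγR1KO library, IFNγR1KO 12, at 94.4 CPM per kb. This sum includes Adam12, chosen by its fold change, at 1.31 CPM per kb in control 1 and 0.0532 in IFNγR1KO 12. That difference is larger than the gap between these libraries, so the groups were apart only through Adam12. Membrane-type MMPs were at 54.1 ± 7.77 and 45.3 ± 4.74, and ADAMTS genes at 42.1 ± 3.18 and 38.4 ± 4.68 (SD, n = 3 each), and in both the groups overlapped. Adam9 led the catalytic ADAMs with 57.5% of their sum, Mmp14 the membrane-type MMPs with 88.4% and Adamts1 the ADAMTS genes with 71.3%.

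**Figure D2:**
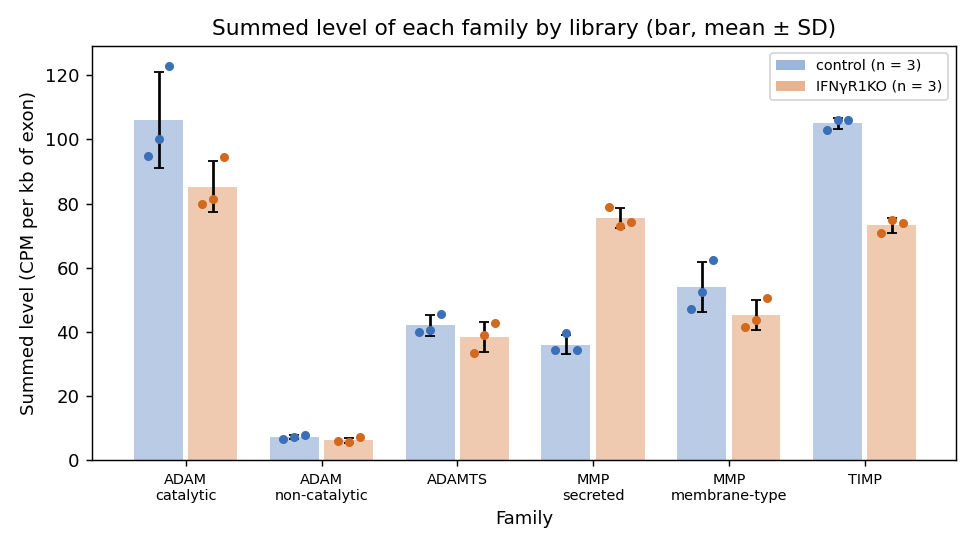
Summed level of each family in CPM per kb of exon; bars are the mean of 3 libraries, error bars the SD and points the single libraries, control in blue and IFNγR1KO in orange. Secreted MMPs are at 36.1 in control and 75.5 in IFNγR1KO libraries, and TIMPs at 105 and 73.3 CPM per kb.

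To ask which proteases differ between the lines, all genes past edgeR's filter on low counts were compared by its quasi-likelihood test. Of the 39 list genes, 28 were among the 13642 tested. Knockout cells came from single clones, so loss of Ifngr1 and traits of a clone cannot be told apart in this comparison. Apart from Adam12, 2 of 27 list genes were higher in IFNγR1KO cells at an adjusted p under 0.05, Adam19 and Mmp11, and 6 were lower, Adam10, Adam15, Adamts9, Mmp15, Mmp24 and Timp2. Among all genes tested, 15.3% were called in either direction, 7.73% higher and 7.62% lower, so the share higher in the list, 7.41%, was close to that of all genes, and the share lower was 22.2%. With a log2 fold change beyond 1 in size as well, Mmp11 was higher and Adamts9 and Mmp15 were lower, where 3.25% and 1.96% of all genes passed. The median log2 fold change was -0.25 over the 27 list genes and 0.00 over all genes tested. The other 19 list genes did not pass. Leaving out 1 library moved the number of list genes called lower, Adam12 not counted, from 6 to 3 without control 2 and to 1 without IFNγR1KO 10 or without IFNγR1KO 11, while calls over all genes went from 1039 lower to 552, 525 and 457 in the same fits. Adam19, Mmp11 and Adamts9 kept their calls in all 6 such fits.

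**Figure D3:**
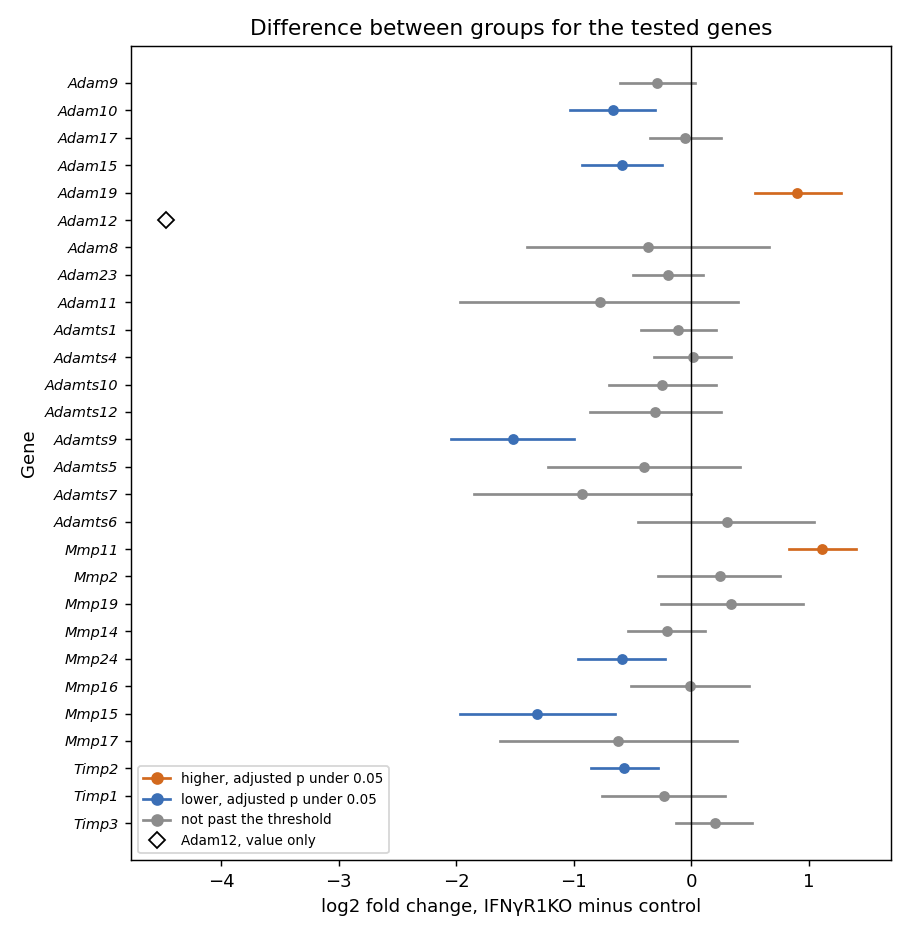
Log2 fold change, IFNγR1KO minus control, of the 28 tested list genes with its 95% interval from edgeR's fit; orange and blue mark genes past an adjusted p of 0.05 and grey those that are not, and Adam12 is drawn as a value only. Mmp11 (1.11) and Adam19 (0.90) lie to the right, and Adamts9 (-1.52) and Mmp15 (-1.31) lie farthest left after Adam12 (-4.47).

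Among the catalytic ADAMs, Adam12 stood apart by the size of its difference. Adam12 (ENSMUSG00000054555.11, minus strand, chr7:133883199-134232146 of GRCm38) encodes meltrin α, a sheddase of EGF-family ligands and a partner of syndecans and integrins, known from myoblast fusion and from tumors. It had 128, 116 and 163 counts in control 1, 2 and 3, or 13.9, 11.5 and 15.8 CPM. IFNγR1KO 10, 11 and 12 had 7, 2 and 4 counts, or 0.994, 0.271 and 0.562 CPM. Every control library was therefore above every knockout library, at a mean of 13.7 ± 2.11 against 0.609 ± 0.364 CPM (SD, n = 3 each). The fitted log2 fold change was -4.47, a level 22.2-fold higher in control cells, and between -5.00 and -4.10 when 1 library was left out. No exon on either strand overlaps its exons in GENCODE M21 (0% of exonic bases).

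Adam19 went the other way. Adam19 (ENSMUSG00000011256.16, chr11:46055992-46147343) encodes meltrin β, a sheddase of neuregulins that is needed for heart development. It was at 21.4, 20.9 and 28.1 CPM in control 1, 2 and 3 and at 42.9, 37.9 and 50.7 CPM in IFNγR1KO 10, 11 and 12. The groups did not overlap, and the level rose by a log2 fold change of 0.90 (standard error 0.17, edgeR adjusted p = 0.00369). Of its exonic bases, 10.1% lie under 2 genes on the other strand, Gm16033 and Gm16034, whose reads cannot be told apart from its own without strand. In CPM per kb over all libraries, Adam19 (4.73) was above Adam12 (0.678).

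Adam10 and Adam15 fell by smaller amounts. Adam10, the main sheddase of Notch receptors and cadherins, was at 101, 99.8 and 137 CPM in control and at 66.6, 63.0 and 83.4 CPM in IFNγR1KO libraries. These groups did not overlap, with control 3 highest and IFNγR1KO 12 the knockout library nearest to control, and the log2 fold change was -0.67 (standard error 0.17, edgeR adjusted p = 0.0178). Without IFNγR1KO 10 its edgeR adjusted p was 0.0739 and without IFNγR1KO 11 it was 0.111. Adam15, a sheddase with an integrin-binding motif in its disintegrin domain, was at 42.4, 47.5 and 50.6 CPM in control and at 28.3, 27.6 and 37.5 CPM in IFNγR1KO libraries (log2 fold change -0.59, standard error 0.16, edgeR adjusted p = 0.0244). Its call was lost without control 2 (edgeR adjusted p = 0.0853), without IFNγR1KO 10 (0.109) and without IFNγR1KO 11 (0.143), and 20.6% of its exonic bases lie under 4731419I09Rik on the other strand.

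The other ADAMs did not pass the test. Adam17, the TNF-α converting enzyme, was at 69.3, 65.8 and 76.8 CPM in control and 63.6, 63.8 and 77.5 CPM in IFNγR1KO libraries, with a log2 fold change of -0.05 and a 95% interval of -0.35 to 0.25 (edgeR adjusted p = 0.861). Adam9, the most abundant ADAM of these cells, was at 218, 240 and 289 CPM in control and 190, 204 and 218 CPM in IFNγR1KO libraries, where the values met at 218 CPM (log2 fold change -0.29, edgeR adjusted p = 0.217). Adam23, an adhesion protein that binds LGI1 on neurons, was at 115 to 137 CPM in control and 99.3 to 123 CPM in IFNγR1KO libraries (log2 fold change -0.20, edgeR adjusted p = 0.390). Adam8 and Adam11 were rare, with 4 to 16 and 1 to 18 counts in a library, and their 95% intervals ran from -1.40 to 0.66 and from -1.97 to 0.40. Adam22 had at most 4 counts in a library and was not tested. Adam33 was also below the filter, with 4, 4 and 2 counts in control and 12, 10 and 7 in IFNγR1KO libraries. Without the filter, Adam33 was higher by a log2 fold change of 1.92 (edgeR adjusted p = 0.0218).

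**Figure D4:**
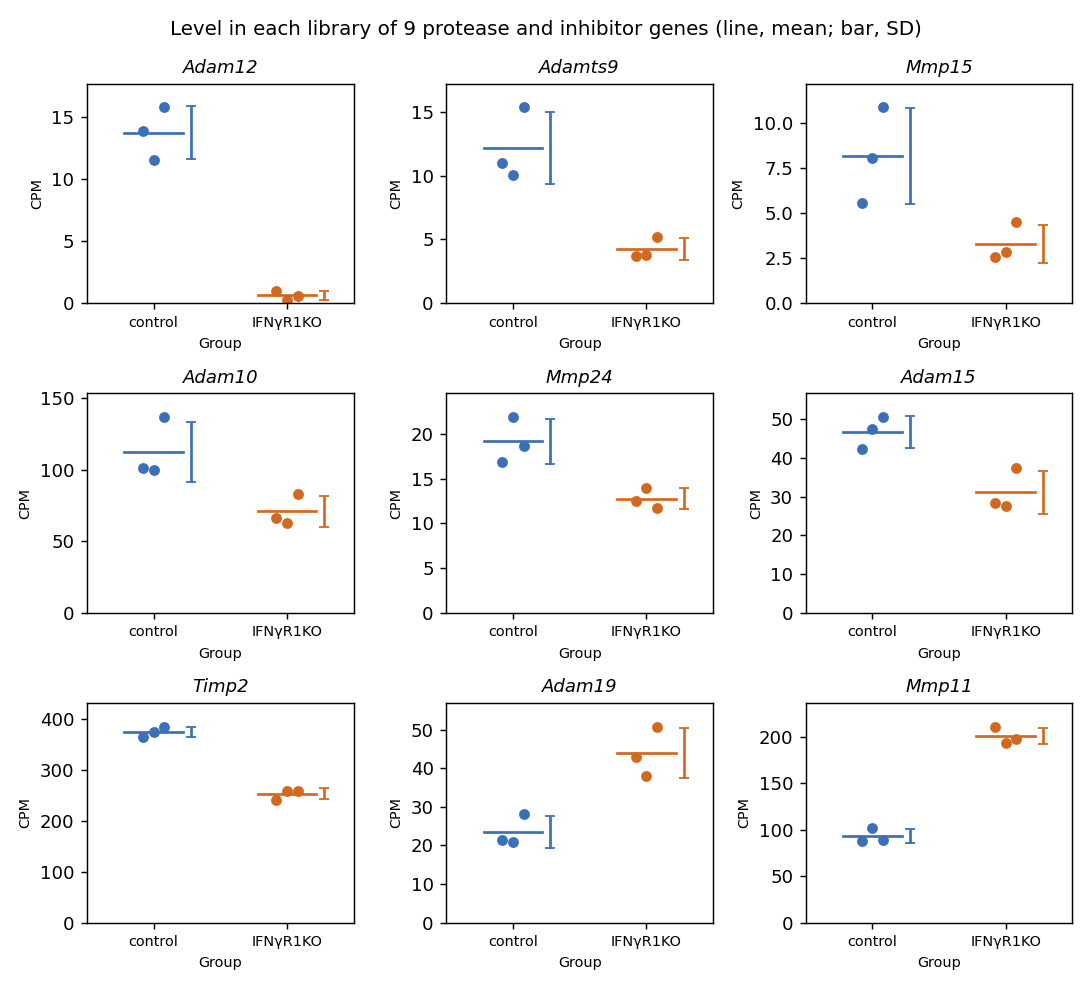
CPM in each control (blue) and IFNγR1KO (orange) library of Adam12 and of the 8 list genes that passed an edgeR adjusted p of 0.05; horizontal lines are means, vertical bars the SD and each vertical axis starts at 0. The genes shown were picked by their test, or Adam12 by its fold change, so that the lines do not overlap in the 9 panels is no separate finding; among all genes tested, 16% did not overlap upwards and 16.6% downwards.

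In the ADAMTS family the fall of Adamts9 was the single call among 8 tested genes, a share of 12.5% against 15.3% of all genes tested in either direction. Adamts9 (chr6, ENSMUSG00000030022) is a proteoglycanase that cuts versican and aggrecan. It was at 11.0, 10.1 and 15.4 CPM in control 1, 2 and 3 and at 3.69, 3.79 and 5.20 CPM in IFNγR1KO 10, 11 and 12. The log2 fold change was -1.52 (standard error 0.24, edgeR adjusted p = 0.00137), with edgeR adjusted p between 6.77e-05 and 0.0119 when 1 library was left out. On the other strand, A730049H05Rik and Gm15737 cover 12.0% of its exonic bases. Adamts1, by level the leading ADAMTS gene and likewise a versican-cutting enzyme, was at 148, 152 and 175 CPM in control and 125, 146 and 168 CPM in IFNγR1KO libraries, which overlapped (log2 fold change -0.11, 95% interval -0.43 to 0.21, edgeR adjusted p = 0.668). Adamts4, the aggrecanase of inflamed cartilage, was at 30.3 ± 3.34 CPM in control and 30.5 ± 3.12 CPM in IFNγR1KO libraries (SD, n = 3 each), with a 95% interval of the log2 fold change of -0.32 to 0.34.

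Other ADAMTS genes were present at low levels and overlapped between the lines. Adamts10, which binds fibrillin microfibrils, was at 18.3 to 34.2 CPM and Adamts12, which cuts COMP, at 6.25 to 13.3 CPM over all 6 libraries. Adamts5, an aggrecanase, was at 1.42 to 5.80 CPM, Adamts7, which also cuts COMP, at 0.843 to 3.48 CPM, and Adamts6 at 1.26 to 1.85 CPM. Of these, Adamts7 had the largest difference, with a log2 fold change of -0.93 (edgeR adjusted p = 0.171). The procollagen N-proteinases Adamts2 and Adamts3 and the proteoglycanase Adamts15 had 0 counts in all 6 libraries, and Adamts17 had 1 count in control 1 and 1 in IFNγR1KO 10. A count of 0 allows up to 3 counts, or 0.290 to 0.426 CPM depending on the library, and covers counting error only.

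Among secreted MMPs, Mmp11 rose in IFNγR1KO cells and was by far the most abundant. Mmp11, a stromelysin that furin activates inside the cell, was at 87.9, 102 and 89.3 CPM in control 1, 2 and 3. In IFNγR1KO 10, 11 and 12 it was at 211, 194 and 198 CPM. The groups lay far apart and the replicates close together, at 92.9 ± 7.52 against 201 ± 8.79 CPM (SD, n = 3 each). On the log2 scale Mmp11 rose by 1.11 (standard error 0.13, edgeR adjusted p = 0.000218). When 1 library was left out this value was between 1.07 and 1.18, and 5.58% of its exonic bases lie under Chchd10 on the other strand. The summed fibroblast markers given above were also higher in IFNγR1KO libraries, through Pdgfrb and Col1a1 and against Pdgfra, with Lum, Thy1 and Dpt at 0, and their part in this difference was not tested. Mmp2, the gelatinase that degrades basement membrane collagen, was at 5.10, 6.87 and 4.93 CPM in control and 7.39, 7.32 and 5.20 CPM in IFNγR1KO libraries, which overlapped (log2 fold change 0.24, edgeR adjusted p = 0.566). Mmp19 was at 2.42 to 4.78 CPM over both lines (log2 fold change 0.34, edgeR adjusted p = 0.463), with 28.3% of its exonic bases under genes on the other strand. Mmp9, the second gelatinase, had at most 2 counts in a library and was not tested.

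The stromelysins Mmp3 and Mmp10 and the collagenase Mmp13 were not detected at this depth, with 0 counts in all 6 libraries. They lie in a cluster of 10 Mmp genes on chromosome 9, within chr9:7272514-7699585, and 9 of the 10 had no count in any library. The tenth, Mmp27, had 3 counts over all libraries. Mmp11, Mmp2, Mmp14 and Mmp15, which were counted in every library, lie on chromosomes 10, 8, 14 and 8.

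Promoters of these genes are printed because a known AP-1 element sits in the inducible MMPs. RefSeq promoters of GRCm38.p6 (250 bases before to 50 after a start site) were at hand for 24 of the 39 genes, 26 promoters in all, and not for Adam12. The AP-1 motif TGAGTCA, searched on both strands, was in 4 of the 26, those of Mmp3, Mmp10 and Mmp13 and 1 of the 3 of Adam19, where 5.2% of all 32851 promoters hold it. Its first base lies at -46, -63, -35 and -131 from the start site. The motif was picked because it is known from inducible MMPs, so its number among these promoters is no separate finding. The interferon-γ-activated motif TTCNNNGAA, the same on both strands, was in 0 of the 26 (8.3% of all promoters), and the ATF4 motif TGATGCAA, on either strand, in 0 of the 26 (0.895% of all). The stretches around the AP-1 match follow in the direction of the gene, with the match in capitals (TGACTCA is the motif on the other strand), from chr9:7445759-7445799, chr9:7502262-7502302, chr9:7272462-7272502 and chr11:46055836-46055876, all on the plus strand.
Mmp3: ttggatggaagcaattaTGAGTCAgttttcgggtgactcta
Mmp10: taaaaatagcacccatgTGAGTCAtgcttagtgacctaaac
Mmp13: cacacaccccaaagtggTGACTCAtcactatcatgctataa
Adam19: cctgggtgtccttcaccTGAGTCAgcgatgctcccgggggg

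CpG content was also counted in these promoter windows. Those of Mmp3, Mmp10 and Mmp13 held 1, 2 and 1 CpG, where the median of all promoters was 7, and that of Timp2, the most abundant gene of the list, held 25. Adamts2 and Adamts3, which were at 0 counts like the Mmp genes, held 41 CpG each, so a CpG-rich window was found in undetected genes as well. The promoters of Mmp13 (chr9:7272264-7272563, plus strand) and Timp2 (chr11:118355362-118355661, minus strand) are printed as one undetected and one abundant gene, with CG in capitals.
Mmp13: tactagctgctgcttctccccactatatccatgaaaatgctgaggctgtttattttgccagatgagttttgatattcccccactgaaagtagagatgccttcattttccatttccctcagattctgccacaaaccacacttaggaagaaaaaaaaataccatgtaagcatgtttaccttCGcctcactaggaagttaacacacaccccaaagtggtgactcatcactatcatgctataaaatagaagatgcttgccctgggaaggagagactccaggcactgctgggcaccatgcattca
Timp2: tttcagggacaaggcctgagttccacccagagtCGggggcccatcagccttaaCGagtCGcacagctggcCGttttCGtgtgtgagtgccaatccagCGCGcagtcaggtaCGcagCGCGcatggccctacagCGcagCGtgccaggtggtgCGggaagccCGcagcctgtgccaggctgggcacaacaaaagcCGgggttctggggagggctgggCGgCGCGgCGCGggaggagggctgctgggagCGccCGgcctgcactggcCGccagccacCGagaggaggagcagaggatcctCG

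Of the 5 membrane-type MMPs, Mmp15 and Mmp24 fell and the dominant one, Mmp14, did not pass the test, so that 40% of these few genes were called lower against 7.62% of all genes tested. Mmp15, a transmembrane MMP that can activate pro-MMP-2, was at 5.54, 8.06 and 10.9 CPM in control 1, 2 and 3 and at 2.56, 2.84 and 4.50 CPM in IFNγR1KO 10, 11 and 12. The control libraries spread widely but stayed above all knockout libraries (log2 fold change -1.31, standard error 0.31, edgeR adjusted p = 0.0129). Without control 2, IFNγR1KO 10 or IFNγR1KO 11 the edgeR adjusted p was 0.0565, 0.0527 and 0.0683. Mmp24, best known from neurons, where it cuts N-cadherin, was at 16.9, 21.9 and 18.7 CPM in control and 12.5, 14 and 11.7 CPM in IFNγR1KO libraries, a log2 fold change of -0.59 (standard error 0.17, edgeR adjusted p = 0.0336). Its call rested on most libraries together, with edgeR adjusted p of 0.122 without control 2 and of 0.112, 0.0830 and 0.0564 without IFNγR1KO 10, 11 and 12, and 13.6% of its exonic bases lie under BC029722 on the other strand.

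Mmp14, the main membrane-anchored collagenase and activator of pro-MMP-2, was at 245, 270 and 326 CPM in control and 223, 230 and 275 CPM in IFNγR1KO libraries. The lines overlapped, and the 95% interval of the log2 fold change was -0.54 to 0.12 (estimate -0.21, edgeR adjusted p = 0.413). Mmp16, also a transmembrane MMP, was at 6.87 to 11.6 CPM over both lines with an interval of -0.51 to 0.49. Mmp17, which is held in the membrane by a lipid anchor, was at 0.426 to 2.42 CPM, with an interval of -1.63 to 0.39.

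Timp2, the inhibitor with the highest level, fell in IFNγR1KO cells. Timp2 inhibits most MMPs and, bound to MMP-14, serves as the receptor through which pro-MMP-2 is activated. It was at 364, 374 and 384 CPM in control 1, 2 and 3 and at 240, 259 and 259 CPM in IFNγR1KO 10, 11 and 12. The replicates were close and the groups far apart, at a log2 fold change of -0.57 (standard error 0.13, edgeR adjusted p = 0.0124), or 1.48-fold higher in control cells. Without IFNγR1KO 10 its edgeR adjusted p was 0.0786 and without IFNγR1KO 11 it was 0.0741, at log2 fold changes of -0.53 and -0.57. Of the trio that activates MMP-2 at the cell surface, Timp2 alone passed the test, and whether its difference exceeds those of Mmp14 and Mmp2 was not tested.

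The remaining inhibitors were far below Timp2. Timp1 was at 6.19, 6.96 and 4.74 CPM in control and 5.82, 5.28 and 4.08 CPM in IFNγR1KO libraries (log2 fold change -0.23, edgeR adjusted p = 0.581). Timp3, the TIMP that binds to the matrix and blocks ADAM17, was at 19.3, 17.3 and 19.1 CPM in control and 20.7, 20.3 and 22.9 CPM in IFNγR1KO libraries. Its groups did not overlap, as held for 16% of all genes tested in the upward direction, but the log2 fold change of 0.20 did not pass (edgeR adjusted p = 0.428), and 21.3% of its exonic bases lie under Syn3. Timp4 had 1 to 6 counts in a library and was not tested.

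Further genes of these families outside the list were mostly not expressed, with 3 of 41 tested and 1 called, too few to set against the 15.3% of all genes. The gene called, upwards, was Adamts13, the von Willebrand factor-cleaving protease. It had 4, 1 and 3 counts in control and 17, 9 and 14 in IFNγR1KO libraries. These are 0.434, 0.0995 and 0.290 CPM in control and 2.42, 1.22 and 1.97 CPM in IFNγR1KO libraries. It passed the filter on low counts only through the knockout libraries, where it was high, so its values are given without a test. The other 2, Adamts14 and Adamts20, did not pass (edgeR adjusted p = 0.0631 and 0.122) and are named here after their values were seen. Adamts14 was at 4.63 ± 1.37 CPM in control and 7.83 ± 1.27 CPM in IFNγR1KO libraries, and Adamts20 at 26.9 ± 4.45 and 19.5 ± 4.2 CPM (SD, n = 3 each). Among 4 tested ADAMTS-like glycoproteins, which have the ADAMTS ancillary domains but no protease domain, 1 was higher and 0 were lower. That is 25% higher of few genes, against 7.73% of all genes tested. Adamtsl5 rose from 28.7 ± 2.75 to 42.6 ± 6 CPM (SD, n = 3 each, log2 fold change 0.57, edgeR adjusted p = 0.0244). The others, named here after their values were seen, did not pass. Papln and Adamtsl4 went down (log2 fold change -1.21 and -0.58, edgeR adjusted p = 0.0657 and 0.097), and Adamtsl2 was at 0.22 (edgeR adjusted p = 0.463).

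Of 11 tested partners that mature or transport the proteases, 0 were higher and 1 was lower in IFNγR1KO cells with edgeR and with DESeq2, and 2 had an unadjusted edgeR p under 0.05. The share called by edgeR, 9.09%, was below the 15.3% of all genes tested. The one was Frmd8, which stabilises the iRhom-ADAM17 complex at the cell surface, at 49.3, 57.3 and 68.1 CPM in control and 34.1, 36.6 and 43.6 CPM in IFNγR1KO libraries (log2 fold change -0.61, edgeR adjusted p = 0.0217). Whether this call, or any other in the related lists, holds with a library left out was not tested. Neither the 3 tested genes of the plasminogen activator system nor the 2 tested other metalloprotease inhibitors passed in either direction (0 genes with edgeR or DESeq2), and at an unadjusted edgeR p under 0.05 there were 1 and 0.

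Among substrates that are shed from the surface, 1 of 20 tested genes was higher and 3 were lower. The share called, 20%, was near the 15.3% of all genes tested, with 5% against 7.73% higher and 15% against 7.62% lower. Tgfa, an EGF receptor ligand released by ADAM17, had 26, 25 and 49 counts in control 1, 2 and 3 and 1, 1 and 0 in IFNγR1KO 10, 11 and 12. It was at least 8.01-fold lower there when the knockout libraries are set to the floor of 3 counts each. Tgfa passed the filter on low counts only through the control libraries, so no test is given for it. Egf, a ligand of the same receptor, was higher, at 3.21 ± 0.577 against 1.21 ± 0.326 CPM (SD, n = 3 each, edgeR adjusted p = 0.0142). Sdc1, a heparan sulfate proteoglycan, fell from 84.3 ± 6.84 to 43.4 ± 4.80 CPM (log2 fold change -0.96, edgeR adjusted p = 0.000846), and Met, the receptor of hepatocyte growth factor, from 396 ± 74.0 to 249 ± 35.8 CPM (SD, n = 3 each, log2 fold change -0.67, edgeR adjusted p = 0.0202).

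Of 9 tested matrix substrates, 4 were higher and 1 was lower, or 44.4% and 11.1% against 7.73% and 7.62% of all genes tested. These are shares of few genes, from a list chosen with earlier results of these data known. Col1a1 is also among the fibroblast markers given above. Col1a2 and Col1a1, the chains of type I collagen, rose with log2 fold changes of 1.07 and 1.96 (edgeR adjusted p = 0.000476 and 0.00175), from 58.9 ± 9.26 to 124 ± 1.24 CPM and from 1.33 ± 0.357 to 5.20 ± 1.39 CPM. Lama5, a laminin chain of basement membranes, rose from 43.9 ± 5.57 to 64.7 ± 9.16 CPM (edgeR adjusted p = 0.0271). The fourth gene that was higher, named here after its values were seen, was Col4a2, which passed narrowly (edgeR adjusted p = 0.0477). It was at 49.3, 45.8 and 66.9 CPM in control and 62.2, 84.1 and 106 CPM in IFNγR1KO libraries, which overlapped. Bcan, the proteoglycan brevican that ADAMTS4 and related enzymes cut, fell from 27.0 ± 2.44 to 12.5 ± 2.00 CPM (SD, n = 3 each, log2 fold change -1.11, edgeR adjusted p = 0.00121).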

How the data were processed

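Poly(A)-selected, paired-end RNA-seq of 6 cultures in 2 groups was used, grouped by the genotype in the labels. The deposited counts are whole reads per gene: per the labels and methods, the authors aligned reads to GRCm38 with STAR 2.7.5a and counted them with HTSeq 0.11.2 (the annotation release and strand setting are not given in the sources used here). HTSeq's lines for unassigned reads, 52.97% to 54.05% of reads per library, were left out of library sizes and tests. Reads that fell on no annotated gene alone made up 46.92% to 47.70% of reads per library, and the reason was not tested. Genes past filterByExpr (minimum count 10, minimum total 15) were compared with edgeR 4.0.16 (TMM, quasi-likelihood test, R 4.3.3) with Benjamini-Hochberg adjustment over all 13642. Standard errors are the log2 fold change divided by the square root of F. The procedure was run on counts simulated from the fit to these libraries, with planted changes larger than most of those called here. That run cannot show whether the smaller calls are reliable. CPM was divided by the length of merged GENCODE M21 exons for levels per kb. Nothing says how the cultures were derived beyond parallel seeding, so p-values measure only the spread between these cultures.

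The 39 genes and all related lists were chosen with earlier results of these data known. Every list gene is named. Values by library and tests are given for genes with an adjusted p under 0.05 and for the 8 highest by level, and related lists give up to 3 genes per direction, smallest adjusted p first. Alternatives were DESeq2 1.42.0, its size factors in edgeR, no filter, counts thinned to the smallest library, and each library left out. For calls in the related lists, DESeq2 was the only alternative. A test on single values, 3 against 3, could not go below an exact permutation p of 0.1 and was not used.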

Additional observations from a re-analysis of the deposited data

How the results depend on the processing

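With DESeq2, its size factors, no filter or thinned counts, 6 list genes were lower each time, Adam12 not counted, and the 8 tested calls kept their direction and their side of the threshold. The list genes higher with a log2 fold change above 1 went from 1 to 2 without the filter, through Adam33. Adamts4 changed sign around 0, at 0.00 with DESeq2, -0.02 without the filter and -0.05 in thinned counts. With each library left out in turn, list genes higher numbered 2 to 3, lower 1 to 6 (2 to 7 with Adam12), higher beyond a log2 fold change of 1, 1 to 2, and lower beyond it, 1 to 2 (2 to 3 with Adam12). The counts without Adam12, whose call its choice fixed, were added after seeing the data. All genes went from 535 to 1372 higher and from 457 to 1452 lower. Without the filter, 1435 of all genes were lower, and 1197 higher. The log2 fold change of Adamts4 then ran from -0.08 to 0.09, of Adam17 from -0.15 to 0.02 and of Mmp16 from -0.21 to 0.15. The cause was not tested. No paired analysis was possible because the groups share no replicate number. At this depth a count of 0 allows up to 0.326 CPM in a control and 0.426 CPM in an IFNγR1KO library, so low genes such as Mmp9 cannot be compared.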
